A study of Mus musculus with 9 samples.

Results

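The NODAL signalling group comprised the ligands Nodal and Gdf3, the co-receptor Tdgf1 (Cripto), the receptors Acvr1b and Acvr2b, the transducers Smad2 and Smad3, the secreted antagonists Lefty1 and Lefty2 and the inhibitory SMAD gene Smad7. These 10 genes were selected by symbol from the 22322 genes listed, and all 10 passed the filter on low counts that 13158 genes passed. Gene expression was measured by RNA-seq in mouse R1 embryonic stem cells that had been kept in suspension without LIF, the cytokine that holds them undifferentiated, for 6 days to form embryoid bodies. There were 3 groups of 3 libraries. The sh-Pfkp cells carried a hairpin against Pfkp, the platelet isoform of the glycolytic enzyme phosphofructokinase, and their genotype was given as Pfkp knockdown. The sh-Lin41 cells carried a hairpin against Lin41, the RNA-binding protein encoded by Trim71, and their genotype was given as Lin41 knockdown. The sh-ctrl cells carried a control hairpin and were labelled WT. The labels name 1 hairpin per gene and no rescue, so an effect of a hairpin or of its cell line cannot be told apart from that of the knockdown. The series title concerns Pfkp as a protein kinase of Lin41 in stem cell differentiation, and each knockdown was set against sh-ctrl and against the other.

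NODAL is a secreted TGF-beta family ligand that signals through activin receptors and needs an EGF-CFC co-receptor such as the product of Tdgf1. The receptors phosphorylate SMAD2 and SMAD3, which enter the nucleus with SMAD4 and act with DNA-binding partners such as FOXH1. Lefty1, Lefty2 and Smad7 are induced by the pathway in mouse embryos and stem cells, and their products inhibit it, which makes them a negative feedback. Phosphorylation and protein levels were not measured, so all values below are mRNA levels.

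The sequence of the Lefty pair is shown first because the genes are close copies and reads from identical stretches could be assigned to either. In GENCODE M21 both genes lie on mouse chromosome 1, each coding sequence has 1104 bases, and 91.85% of the aligned bases were identical, with a longest identical run of 140 bases. Coding bases 46 to 165, counted from the start codon, held 34 differences, which are given in capitals.
Lefty1: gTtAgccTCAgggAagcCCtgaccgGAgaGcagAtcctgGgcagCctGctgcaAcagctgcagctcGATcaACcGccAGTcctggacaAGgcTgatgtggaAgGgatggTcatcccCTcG
Lefty2: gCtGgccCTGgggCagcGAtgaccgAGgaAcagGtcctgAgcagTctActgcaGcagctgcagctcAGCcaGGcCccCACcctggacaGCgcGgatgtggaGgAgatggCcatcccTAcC
Of all 50-base stretches in the transcript, 17.89% for Lefty1 and 11.63% for Lefty2 also occurred in another gene, nearly all of them in the other Lefty gene. At 100 bases the shares were 4.799% for Lefty1 and 3.075% for Lefty2. The split of reads between Lefty1 and Lefty2 is therefore uncertain in part, whereas their sum is less affected. Tdgf1 shared 12.53% of its 50-base stretches with the pseudogene Tdgf1-ps1, and Gdf3 shared 2.023% with other transcripts. No other member shared any.

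The start region of Tdgf1 is shown because Tdgf1 was the most abundant member and differed most between the knockdowns, and that of Nodal because its levels overlapped between all groups. Both span 250 bases before to 50 bases after the RefSeq start (GRCm38.p6). Tdgf1 lies at chr9:110946109-110946408 on the minus strand, and Nodal at chr10:61417722-61418021 on the plus strand. Capitals mark the letters CAGAC (SMAD proteins), AATNNACA (a loose pattern for FOXH1) and ATGCAAAT (the octamer of POU factors), each searched on both strands. N stands for any base, so a match to AATNNACA need not be a FOXH1 site.
Tdgf1: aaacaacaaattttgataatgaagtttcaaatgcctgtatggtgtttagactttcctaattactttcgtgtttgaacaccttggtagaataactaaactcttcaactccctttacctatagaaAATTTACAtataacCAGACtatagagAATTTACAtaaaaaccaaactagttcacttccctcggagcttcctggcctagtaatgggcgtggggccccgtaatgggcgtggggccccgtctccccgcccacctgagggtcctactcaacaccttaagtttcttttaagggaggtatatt
Nodal: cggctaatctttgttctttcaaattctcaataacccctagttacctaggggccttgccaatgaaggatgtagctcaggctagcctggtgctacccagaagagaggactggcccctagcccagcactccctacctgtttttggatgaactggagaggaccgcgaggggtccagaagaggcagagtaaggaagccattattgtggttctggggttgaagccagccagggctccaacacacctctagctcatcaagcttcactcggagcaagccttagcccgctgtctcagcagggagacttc
In Tdgf1, CAGAC started at position -113 and AATTTACA at -127 and -101 relative to the start, without overlap. Nodal held none of the 3 motifs in this window. Of 32851 promoters of this length, 49.59% held CAGAC, 12.21% AATNNACA and 1.735% ATGCAAAT. The RefSeq table also matched Acvr2b, which held CAGAC on the minus strand at -233, and Acvr1b and Smad3, which held none of the motifs. It held no entry for Lefty1, Lefty2, Gdf3, Smad2 or Smad7, so only 5 of the 10 members were searched. A match of letters is a description and does not show binding.

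Total counts lay between 15495194 and 20607683 per library. Levels are CPM, the counts divided by library size and scaled by the TMM method of edgeR. Pfkp had 101.2 to 104.9 CPM in sh-Pfkp, 221.8 to 232.6 CPM in sh-Lin41 and 245.0 to 248.3 CPM in sh-ctrl. Trim71 had 347.2 to 359.9 CPM in sh-Pfkp, 155.9 to 165.1 CPM in sh-Lin41 and 263.7 to 273.0 CPM in sh-ctrl. Each targeted gene was thus lowest in its own knockdown. All 8 pluripotency markers exceeded 10 CPM in every group, with sums of 3954 to 4018 CPM in sh-Pfkp, 4822 to 4843 CPM in sh-Lin41 and 3948 to 4030 CPM in sh-ctrl. Against sh-ctrl, 4 were called higher and 4 lower in sh-Pfkp (edgeR adjusted p under 0.05), and 6 higher and 1 lower in sh-Lin41. Of all tested genes, 56.6% and 54.3% were called in these comparisons. Of 9 mesendoderm markers, 7 in sh-Pfkp, 8 in sh-Lin41 and 8 in sh-ctrl averaged under 1 CPM. The 8 extraembryonic endoderm markers summed to 7.49 to 8.63 CPM in sh-Pfkp, 7.83 to 8.30 CPM in sh-Lin41 and 5.66 to 8.50 in sh-ctrl. Among them, Afp, a visceral endoderm marker, was at 0 counts in all 9 libraries. Of the 5 tested, 1 (Pdgfra) was higher and 1 (Gata4) lower in sh-Pfkp against sh-ctrl. In sh-Lin41 against sh-ctrl, 1 of these 5 was higher and 0 lower. The 7 neuroectoderm markers summed to 136.0 to 143.1 CPM in sh-Pfkp, 112.4 to 116.6 CPM in sh-Lin41 and 115.5 to 119.0 CPM in sh-ctrl, with Tubb3 the highest. Of the 5 tested, 3 were higher and 1 (Map2) lower in sh-Pfkp against sh-ctrl. In sh-Lin41 against sh-ctrl, 1 of them was higher and 1 lower. The 6 primed epiblast markers summed to 272.2 to 285.1 CPM in sh-Pfkp, 180.1 to 188.8 CPM in sh-Lin41 and 259.4 to 273.4 in sh-ctrl. Dnmt3b made up most of these sums, averaging 252.8, 165.9 and 241.8 CPM in the same order. Of the 5 tested, 2 were higher and 3 lower in sh-Pfkp against sh-ctrl. In sh-Lin41 against sh-ctrl, 1 of them was higher and 3 lower. The embryoid bodies thus held abundant pluripotency transcripts, primed epiblast and neuroectoderm marker transcripts at lower sums and few mesendoderm or extraembryonic endoderm transcripts. The 13 mitochondrial genes took 6.65% to 6.86% of counts in sh-Pfkp, 7.19% to 7.43% in sh-Lin41 and 5.15% to 5.32% in sh-ctrl. The part of any of these differences in the results was not tested, and a lower level in bulk RNA can come from fewer cells of a type or from less RNA per cell.

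**Figure D1:**
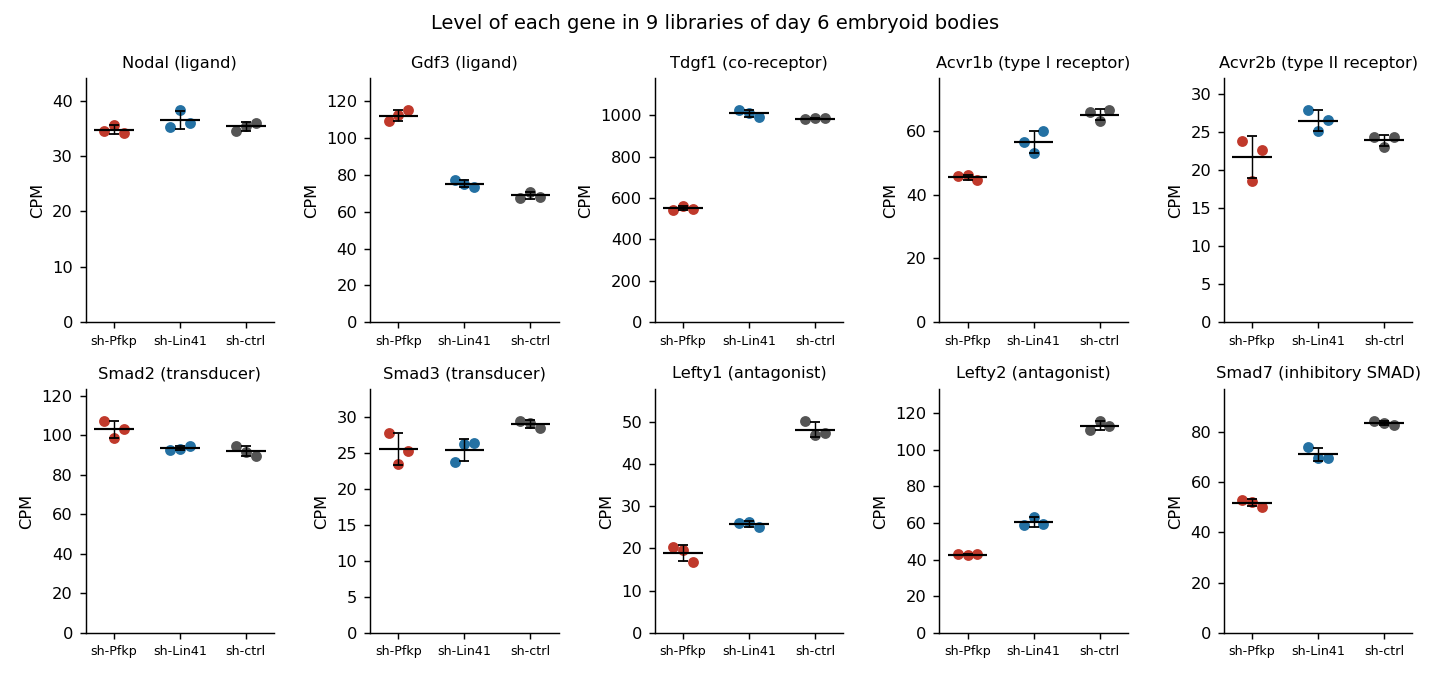
Level of each of the 10 genes in CPM (linear axis from 0) by group, with points for the 3 libraries, a line at the mean and bars of 1 SD. Nodal lies between 34.1 and 38.3 CPM in all 9 libraries, whereas Lefty1, Lefty2 and Smad7 are lowest in sh-Pfkp, intermediate in sh-Lin41 and highest in sh-ctrl.

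The ligand Nodal (ENSMUSG00000037171) was at about the same level in all 3 groups. It had 34.5, 35.7 and 34.1 CPM in the sh-Pfkp libraries, 35.4, 38.3 and 36.0 CPM in sh-Lin41 and 34.6, 35.5 and 36.1 CPM in sh-ctrl. The groups overlapped. The log2 fold change was -0.02 for sh-Pfkp against sh-ctrl (95% interval -0.13 to 0.08, edgeR adjusted p = 0.709) and 0.05 for sh-Lin41 against sh-ctrl (interval -0.06 to 0.15, adjusted p = 0.448). Between the knockdowns, sh-Pfkp against sh-Lin41, it was -0.07 (interval -0.18 to 0.03, edgeR adjusted p = 0.229). With limma-trend on FPKM, this last difference passed the threshold (adjusted p = 0.0449).

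Gdf3 (ENSMUSG00000030117), a NODAL-like ligand that also uses the Cripto co-receptor, rose in sh-Pfkp. It had 109.2, 112.6 and 115.3 CPM in the sh-Pfkp libraries, 77.1, 75.3 and 73.3 CPM in sh-Lin41 and 67.6, 71.0 and 68.3 CPM in sh-ctrl. All sh-Pfkp libraries lay above all others, and the sh-Lin41 libraries lay just above sh-ctrl without overlap. Its log2 fold change was 0.70 in sh-Pfkp against sh-ctrl (SE 0.0356, edgeR adjusted p = 3.39e-17) and 0.13 in sh-Lin41 against sh-ctrl (SE 0.0374, adjusted p = 0.00482). The difference between the knockdowns, sh-Pfkp against sh-Lin41, was 0.58 (SE 0.0344, edgeR adjusted p = 2.13e-15). In sh-Pfkp against sh-ctrl, 592 of 13158 genes had a larger positive fold change. Of the 6 stromal markers, 4 rose and 2 fell in sh-Pfkp against sh-ctrl, with sums of 20.7 to 23.1 CPM in sh-Pfkp, 9.17 to 10.8 CPM in sh-Lin41 and 13.3 to 14.4 CPM in sh-ctrl. The collagen genes Col1a1, Col1a2 and Col3a1 and the proteoglycan gene Dcn rose, and Dcn was at 0.718 to 1.16 CPM in sh-Pfkp and at 0 counts in sh-Lin41 and sh-ctrl. Pdgfrb fell to 2.32 to 2.73 CPM in sh-Pfkp, against 7.95 to 8.70 CPM in sh-ctrl, and Thy1 to 1.80 to 1.90 CPM in sh-Pfkp, against 3.49 to 3.90 CPM in sh-ctrl. Their part in the Gdf3 difference was not tested.

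Tdgf1 (ENSMUSG00000032494), which encodes the membrane-anchored co-receptor that brings NODAL to its receptors, fell in sh-Pfkp. It had 542.2, 562.7 and 549.3 CPM in the sh-Pfkp libraries, 1025, 1011 and 993.4 CPM in sh-Lin41 and 981.7, 985.6 and 986.0 CPM in sh-ctrl. Every sh-Pfkp library was far below every other library, and the sh-Lin41 libraries lay narrowly above sh-ctrl. The mean of 551.4 ± 10.4 CPM in sh-Pfkp was 56.0% of the 984.4 ± 2.39 CPM in sh-ctrl (SD, n = 3 each). The log2 fold change of Tdgf1 was -0.84 in sh-Pfkp against sh-ctrl (SE 0.0177, edgeR adjusted p = 4.84e-27) and -0.87 in sh-Pfkp against sh-Lin41 (SE 0.0176, adjusted p = 4.3e-27). In sh-Lin41 against sh-ctrl it was 0.04 (95% interval 0.0020 to 0.07) and did not pass the threshold (edgeR adjusted p = 0.0685). That last value passed with limma-voom (adjusted p = 0.024), with limma-trend (adjusted p = 0.0322) and without sh-Lin41 replicate 3 (edgeR adjusted p = 0.0266).

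Acvr1b (ENSMUSG00000000532), which encodes the type I activin receptor ALK4, fell in both knockdowns and most in sh-Pfkp. It had 45.7, 46.1 and 44.6 CPM in the sh-Pfkp libraries, 56.5, 53.2 and 60.0 CPM in sh-Lin41 and 65.9, 63.1 and 66.5 CPM in sh-ctrl. The 3 groups did not overlap. Its log2 fold change was -0.52 in sh-Pfkp against sh-ctrl (SE 0.0454, edgeR adjusted p = 2.3e-11), -0.21 in sh-Lin41 against sh-ctrl (SE 0.0435, adjusted p = 0.000154) and -0.31 in sh-Pfkp against sh-Lin41 (SE 0.0455, adjusted p = 6.93e-07). The annotated microRNA gene Mir6962 overlaps Acvr1b on the same strand.

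Acvr2b (ENSMUSG00000061393), which encodes a type II activin receptor, differed between the knockdowns but passed the test against sh-ctrl in neither. It had 23.7, 18.5 and 22.6 CPM in the sh-Pfkp libraries, 27.8, 25.0 and 26.5 CPM in sh-Lin41 and 24.3, 23.0 and 24.3 CPM in sh-ctrl. The sh-Pfkp range overlapped that of sh-ctrl, and all sh-Lin41 libraries lay above the rest. The log2 fold change was -0.15 in sh-Pfkp against sh-ctrl (95% interval -0.30 to 0.0077, edgeR adjusted p = 0.0988) and 0.15 in sh-Lin41 against sh-ctrl (interval 0.00094 to 0.29, adjusted p = 0.0831). In sh-Pfkp against sh-Lin41, Acvr2b fell by 0.29 on the log2 scale (SE 0.0723, edgeR adjusted p = 0.000909). Without sh-Pfkp replicate 2, the lowest library, the first value was -0.037 (edgeR adjusted p = 0.694) and the difference between the knockdowns -0.18, still called (adjusted p = 0.0293). The first value passed without sh-Pfkp replicate 1 (edgeR adjusted p = 0.0246) and the second without sh-Pfkp replicate 2 (adjusted p = 0.0495). The antisense gene Gm47320 overlaps Acvr2b. No source used here gives the strand setting, and without it reads of the pair cannot be told apart.

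Smad2 (ENSMUSG00000024563), a receptor-activated transducer, rose slightly in sh-Pfkp. It had 107.2, 98.7 and 103.1 CPM in the sh-Pfkp libraries, 92.7, 93.1 and 94.5 CPM in sh-Lin41 and 94.5, 91.7 and 89.6 CPM in sh-ctrl. All sh-Pfkp libraries were above all others, while sh-Lin41 overlapped sh-ctrl. Its log2 fold change was 0.16 in sh-Pfkp against sh-ctrl (SE 0.035, edgeR adjusted p = 0.000182), 0.02 in sh-Lin41 against sh-ctrl (95% interval -0.05 to 0.10, adjusted p = 0.597) and 0.14 in sh-Pfkp against sh-Lin41 (SE 0.0342, adjusted p = 0.00081). The last call was lost with limma-trend on FPKM (adjusted p = 0.0599).

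Smad3 (ENSMUSG00000032402), the other receptor-activated transducer, fell by a small amount in both knockdowns. It had 27.9, 23.5 and 25.4 CPM in the sh-Pfkp libraries, 23.8, 26.3 and 26.4 CPM in sh-Lin41 and 29.5, 29.3 and 28.5 CPM in sh-ctrl. Both knockdown groups lay below sh-ctrl and overlapped each other. The log2 fold change was -0.18 in sh-Pfkp against sh-ctrl (SE 0.0645, edgeR adjusted p = 0.0155) and -0.19 in sh-Lin41 against sh-ctrl (SE 0.064, adjusted p = 0.0124). In sh-Pfkp against sh-Lin41 it was 0.0065 (95% interval -0.13 to 0.14, edgeR adjusted p = 0.94). The first call was lost with DESeq2 (adjusted p = 0.0528), without sh-Pfkp replicate 2 (log2 fold change -0.12, edgeR adjusted p = 0.141) and without sh-ctrl replicate 1 (adjusted p = 0.0535), and the second without sh-Lin41 replicate 1 (adjusted p = 0.0938). In the authors' deposited tables Smad3 had an FDR of 0.0559 for sh-Pfkp and 0.065 for sh-Lin41.

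Lefty1 (ENSMUSG00000038793) and Lefty2 (ENSMUSG00000066652), secreted antagonists that bind NODAL and its co-receptor, had the largest falls of the 10 genes in both knockdowns. Lefty1 had 20.3, 19.6 and 16.8 CPM in the sh-Pfkp libraries, 26.0, 26.2 and 25.0 CPM in sh-Lin41 and 50.2, 46.8 and 47.4 CPM in sh-ctrl. Lefty2 had 42.9, 42.5 and 43.0 CPM in the sh-Pfkp libraries, 58.9, 63.5 and 59.2 CPM in sh-Lin41 and 110.8, 115.8 and 113.1 CPM in sh-ctrl. For both genes the 3 groups were separate, with sh-Pfkp lowest and sh-ctrl highest. Relative to sh-ctrl, Lefty1 was at 39.2% in sh-Pfkp and 53.5% in sh-Lin41, and Lefty2 at 37.8% in sh-Pfkp and 53.5% in sh-Lin41. In sh-Pfkp against sh-ctrl the log2 fold change was -1.35 for Lefty1 (SE 0.0609, edgeR adjusted p = 1.8e-18) and -1.40 for Lefty2 (SE 0.0393, adjusted p = 5.99e-24). In sh-Lin41 against sh-ctrl it was -0.90 for Lefty1 (SE 0.0571, edgeR adjusted p = 9.01e-15) and -0.90 for Lefty2 (SE 0.0368, adjusted p = 1.2e-19). The fall was larger with the Pfkp hairpin, and in sh-Pfkp against sh-Lin41 the difference was -0.45 for Lefty1 (SE 0.066, edgeR adjusted p = 8.81e-07) and -0.50 for Lefty2 (SE 0.0424, adjusted p = 8.79e-12). Of the 13158 genes, 251 fell further than Lefty1 and 216 further than Lefty2 by fold change in sh-Pfkp, and 390 and 385 in sh-Lin41. In the authors' deposited tables of genes filtered on fold and FDR, Lefty1 (log2 ratio -1.40) and Lefty2 (-1.45) were in the sh-Pfkp list of 923 genes, and no member was in the sh-Lin41 list of 473.

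Smad7 (ENSMUSG00000025880), whose product blocks the receptors inside the cell, followed the same order as the Lefty genes. It had 53.0, 52.2 and 50.2 CPM in the sh-Pfkp libraries, 74.2, 69.8 and 69.6 CPM in sh-Lin41 and 84.4, 83.8 and 82.6 CPM in sh-ctrl. By CPM the 3 groups did not overlap, whereas by FPKM sh-Lin41 (19.5 to 23.6) overlapped sh-ctrl (22.1 to 26.4). Its log2 fold change was -0.69 in sh-Pfkp against sh-ctrl (SE 0.0397, edgeR adjusted p = 8.74e-16), -0.23 in sh-Lin41 against sh-ctrl (SE 0.0374, adjusted p = 4.08e-06) and -0.46 in sh-Pfkp against sh-Lin41 (SE 0.0399, adjusted p = 1.66e-11). With limma-trend on FPKM the fall in sh-Lin41 was not called (adjusted p = 0.0985).

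Counted together, 2 of the 10 genes rose in sh-Pfkp against sh-ctrl and 6 fell. In that comparison 56.6% of all tested genes were called in edgeR at an adjusted p under 0.05, 28.3% higher and 28.3% lower. In sh-Lin41 against sh-ctrl, 1 was higher and 5 lower, where 54.3% of all genes were called, 26.9% higher and 27.3% lower. Set against sh-Lin41, the sh-Pfkp libraries had 2 of them higher and 6 lower, where 55.1% of all genes were called, 27.4% higher and 27.8% lower. The median absolute log2 fold change of the 10 genes was 0.60 in sh-Pfkp against sh-ctrl, 0.17 in sh-Lin41 against sh-ctrl and 0.38 in sh-Pfkp against sh-Lin41, beside 0.21, 0.20 and 0.21 over all tested genes. The comparisons with sh-ctrl share the same 3 sh-ctrl libraries, so their values are given side by side.

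**Figure D2:**
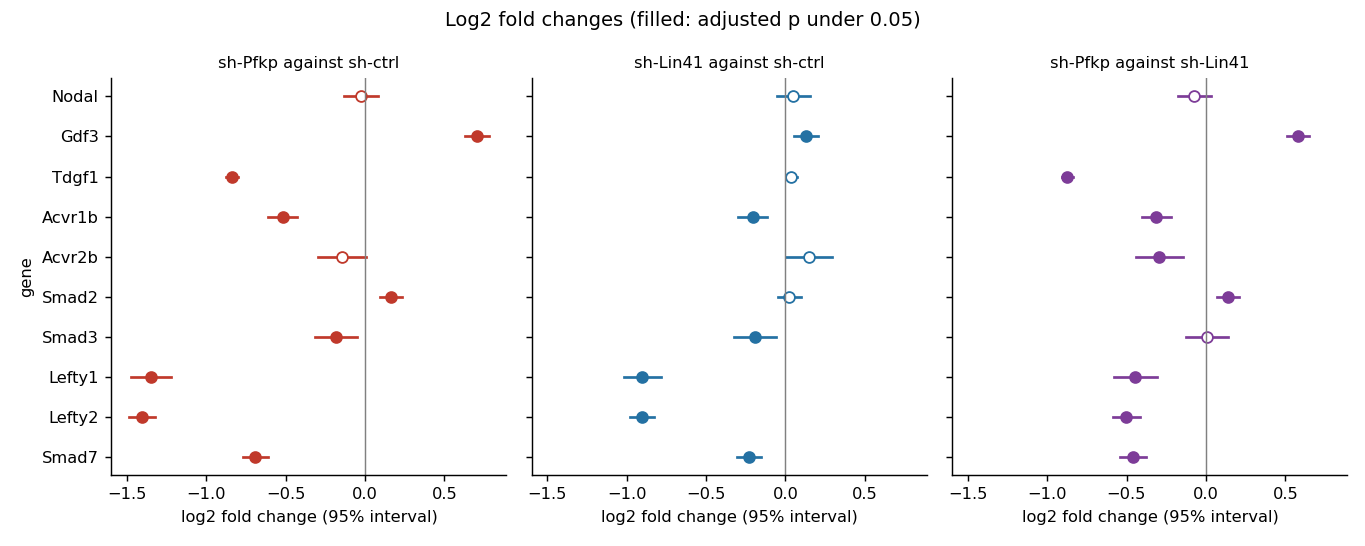
Log2 fold change of each of the 10 genes with its 95% interval in the 3 comparisons, with filled points for edgeR adjusted p under 0.05. Lefty1 and Lefty2 are the leftmost points in both comparisons with sh-ctrl, and Nodal lies at 0 within its interval in all 3.

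Levels per length were compared with the authors' FPKM values. Tdgf1 stood far above the other members in every group, with 294.5 ± 4.12 FPKM in sh-Pfkp, 567.0 ± 16.8 FPKM in sh-Lin41 and 539.6 ± 8.22 FPKM in sh-ctrl (SD, n = 3). In sh-ctrl it was followed by Lefty2 (46.3 ± 1.02 FPKM), Gdf3 (32.8 ± 0.832), Lefty1 (30.0 ± 1.13), Smad2 (24.9 ± 1.3), Smad7 (24.0 ± 2.23), Nodal (17.1 ± 0.386), Acvr1b (14.9 ± 0.435), Smad3 (8.80 ± 0.740) and Acvr2b (8.19 ± 0.285). Of these neighbours, Smad2 and Smad7 overlapped, as did Smad3 and Acvr2b. In sh-Pfkp the order after Tdgf1 was Gdf3 (51.7 ± 1.41 FPKM), Smad2 (28.95 ± 1.12), Lefty2 (16.9 ± 0.132), Nodal (16.2 ± 0.359), Smad7 (14.5 ± 0.287), Lefty1 (11.4 ± 1.11), Acvr1b (10.1 ± 0.164), Acvr2b (7.37 ± 0.986) and Smad3 (7.18 ± 0.772). There the ranges of Lefty1 and Acvr1b overlapped, and those of Acvr2b and Smad3. In sh-Lin41 the order was Gdf3 (35.7 ± 0.917 FPKM), Smad2 (26.8 ± 0.390), Lefty2 (24.7 ± 0.963), Smad7 (21.3 ± 2.09), Nodal (17.6 ± 0.692), Lefty1 (16.0 ± 0.387), Acvr1b (12.9 ± 0.805), Acvr2b (9.09 ± 0.475) and Smad3 (7.07 ± 0.554), with no overlap between neighbours.

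Ratios of FPKM within a library put the antagonists against their ligand. Lefty1 and Lefty2 together were 1.81, 1.72 and 1.70 times the Nodal level in the sh-Pfkp libraries, 2.36, 2.29 and 2.295 times in sh-Lin41 and 4.59, 4.47 and 4.35 times in sh-ctrl. The groups did not overlap. The ratio of Lefty1 to Lefty2 was 0.673 ± 0.0682 in sh-Pfkp, 0.650 ± 0.0224 in sh-Lin41 and 0.649 ± 0.0385 in sh-ctrl (SD, n = 3), with overlapping ranges. Tdgf1 per Nodal was 18.15 ± 0.222 in sh-Pfkp, 32.2 ± 1.83 in sh-Lin41 and 31.6 ± 1.09 in sh-ctrl, and Gdf3 per Nodal was 3.19 ± 0.125 in sh-Pfkp, 2.03 ± 0.108 in sh-Lin41 and 1.92 ± 0.0529 in sh-ctrl. For both of these ratios sh-Pfkp stood apart, and sh-Lin41 overlapped sh-ctrl. Smad2 per Smad3 was 4.05 ± 0.362 in sh-Pfkp, 3.81 ± 0.350 in sh-Lin41 and 2.84 ± 0.131 in sh-ctrl. Acvr1b per Acvr2b was 1.39 ± 0.211 in sh-Pfkp, 1.42 ± 0.0770 in sh-Lin41 and 1.82 ± 0.0330 in sh-ctrl. In these last ratios both knockdowns overlapped each other and were separate from sh-ctrl.

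**Figure D3:**
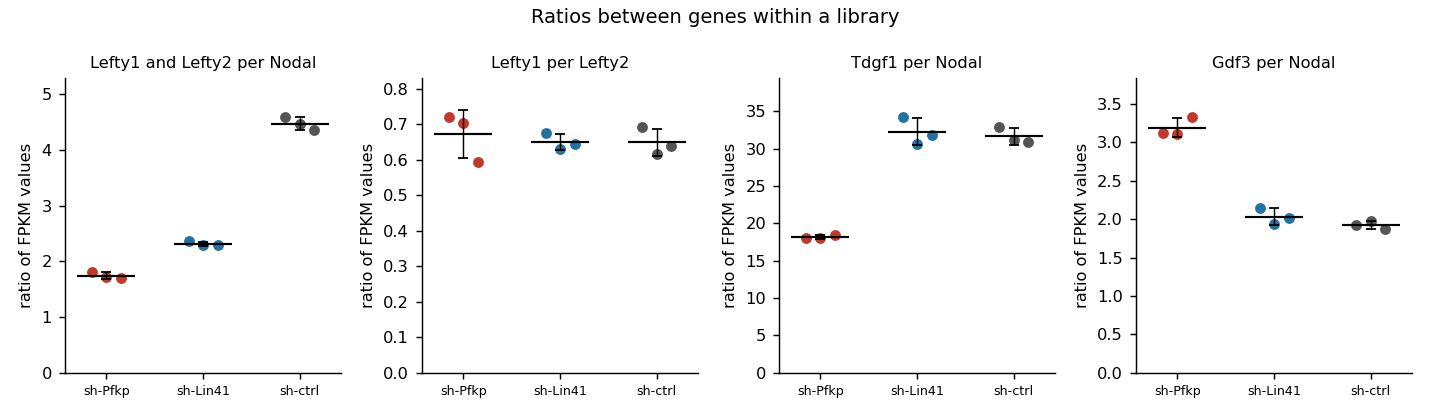
Ratios of FPKM values within each library (linear axis from 0) by group, with points for libraries, a line at the mean and bars of 1 SD. The Lefty sum per Nodal averages 1.75 in sh-Pfkp, 2.32 in sh-Lin41 and 4.47 in sh-ctrl, whereas Lefty1 per Lefty2 overlaps between all groups.

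Of 42 other listed genes of the pathway, 28 had enough counts to be tested. In sh-Pfkp against sh-ctrl, 6 were higher and 10 lower. In sh-Lin41 against sh-ctrl, 8 were higher and 12 lower, and in sh-Pfkp against sh-Lin41, 5 were higher and 11 lower. Their median log2 fold changes were -0.06, -0.09 and -0.07 in the same order of comparisons, beside -0.0050, 0.0043 and -0.01 over all tested genes. The shares of all genes called, given above, apply to these counts as well.

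Among 5 tested ligand and convertase genes, 1 was higher and 3 were lower in each comparison. Inhbb, the activin B subunit gene, had 87.4 to 90.7 CPM in sh-Pfkp, 174.9 to 179.5 CPM in sh-Lin41 and 86.6 to 90.6 CPM in sh-ctrl. Against sh-ctrl it rose in sh-Lin41, at 1.00 on the log2 scale (SE 0.0302, edgeR adjusted p = 5.33e-23), while the sh-Pfkp and sh-ctrl ranges overlapped. Furin, a convertase that cleaves the NODAL precursor, fell in sh-Pfkp (log2 fold change -0.64, SE 0.0684, edgeR adjusted p = 1.99e-09) and in sh-Lin41 (-0.39, SE 0.0659, adjusted p = 9.16e-06), both against sh-ctrl. Pcsk6, which encodes the convertase PACE4, rose in sh-Pfkp (0.11) and fell in sh-Lin41 (-0.27), and Tgfb1, another ligand gene, fell in sh-Pfkp (-0.71). Of the 4 tested receptor genes, 1 was lower in sh-Pfkp and 2 were higher in sh-Lin41 against sh-ctrl, and 3 were lower in sh-Pfkp against sh-Lin41. Acvr2a, the second type II activin receptor gene, rose in sh-Lin41 (0.50, SE 0.0558, edgeR adjusted p = 4.02e-09) together with the type I receptor gene Tgfbr1 (0.25), and the co-receptor gene Tgfbr3 fell in sh-Pfkp (-0.63).

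Of 10 SMAD4 and nuclear factor genes, 3 rose and 2 fell in sh-Pfkp against sh-ctrl, 2 were higher and 4 lower in sh-Lin41 against sh-ctrl, and 3 higher and 1 lower in sh-Pfkp against sh-Lin41. Skil, which encodes the SMAD co-repressor SnoN, fell by nearly the same amount in both knockdowns, with log2 fold changes of -0.32 in sh-Pfkp (SE 0.0250, edgeR adjusted p = 1.48e-12) and -0.31 in sh-Lin41 (SE 0.0248, adjusted p = 2.48e-12). The SMAD anchor gene Zfyve9 fell in both knockdowns against sh-ctrl, by log2 fold changes of -0.26 in sh-Pfkp and -0.32 in sh-Lin41, and the SMAD ubiquitin ligase gene Trim33 rose in both (0.15 in sh-Pfkp and 0.20 in sh-Lin41). The SMAD phosphatase gene Ppm1a fell in sh-Lin41 against sh-ctrl (-0.27), and the co-repressor gene Tgif1 rose there (0.28). Foxh1, the DNA-binding partner of SMAD2, rose in sh-Pfkp against sh-ctrl (0.25, SE 0.0568, edgeR adjusted p = 0.000362). Relative to sh-Lin41 its rise was 0.31 (SE 0.0559, edgeR adjusted p = 1.57e-05).

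Among 8 tested inhibitor genes, 2 rose and 3 fell in sh-Pfkp against sh-ctrl, 3 were higher and 4 lower in sh-Lin41 against sh-ctrl, and 1 higher and 4 lower in sh-Pfkp against sh-Lin41. Fstl3, an activin-binding follistatin-like gene, had 0.667 to 0.931 CPM in sh-Pfkp, 1.06 to 1.93 CPM in sh-Lin41 and 2.88 to 3.95 CPM in sh-ctrl. Its log2 fold change was -2.01 in sh-Pfkp (SE 0.261, edgeR adjusted p = 8.5e-08) and -1.31 in sh-Lin41 (SE 0.236, adjusted p = 1.96e-05). Follistatin, Fst, went the other way, with 2.09 to 2.37 CPM in sh-Pfkp, 2.53 to 2.99 CPM in sh-Lin41 and 0.973 to 1.34 CPM in sh-ctrl, and its log2 fold change was 1.06 in sh-Pfkp (SE 0.237, edgeR adjusted p = 0.000314) and 1.35 in sh-Lin41 (SE 0.227, adjusted p = 7.71e-06). Both are low-count genes. Nomo1, whose product antagonises NODAL in zebrafish, rose in sh-Pfkp (0.12) and fell in sh-Lin41 (-0.13), and Smurf2, a ubiquitin ligase gene, fell in sh-Pfkp (-0.23) and in sh-Lin41 (-0.12). Pmepa1, whose product sequesters SMAD2 and SMAD3, and the ubiquitin ligase gene Smurf1 were lower in sh-Pfkp than in sh-Lin41 (-0.34 and -0.15). In sh-Pfkp against sh-ctrl neither was called (-0.10 with edgeR adjusted p = 0.266 for Pmepa1, and -0.035 with adjusted p = 0.561 for Smurf1).

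Of 9 listed NODAL target genes, only Eomes had enough counts to be tested, and it fell in both knockdowns. Eomes, a T-box factor of early mesendoderm, had 10.1 to 10.6 CPM in sh-Pfkp, 8.88 to 9.39 CPM in sh-Lin41 and 13.7 to 15.0 CPM in sh-ctrl. The knockdown libraries all lay below the sh-ctrl libraries. Its log2 fold change was -0.49 in sh-Pfkp (SE 0.0901, edgeR adjusted p = 2.45e-05) and -0.67 in sh-Lin41 (SE 0.0910, adjusted p = 2.09e-07), both against sh-ctrl. The difference between the knockdowns did not pass the threshold. Evx1, a low-count gene of the mesendoderm marker list, went the other way in sh-Pfkp and was not called in sh-Lin41. It had 2.09 to 2.72 CPM in sh-Pfkp and 0.448 to 0.655 CPM in sh-ctrl (log2 fold change 2.08, SE 0.295, edgeR adjusted p = 4.27e-07). The other 8 targets, among them Gsc, Mixl1 and T, were too low to test, and the antagonist gene Cer1 and the receptor gene Acvr1c had 0 counts in all 9 libraries.

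**Figure D4:**
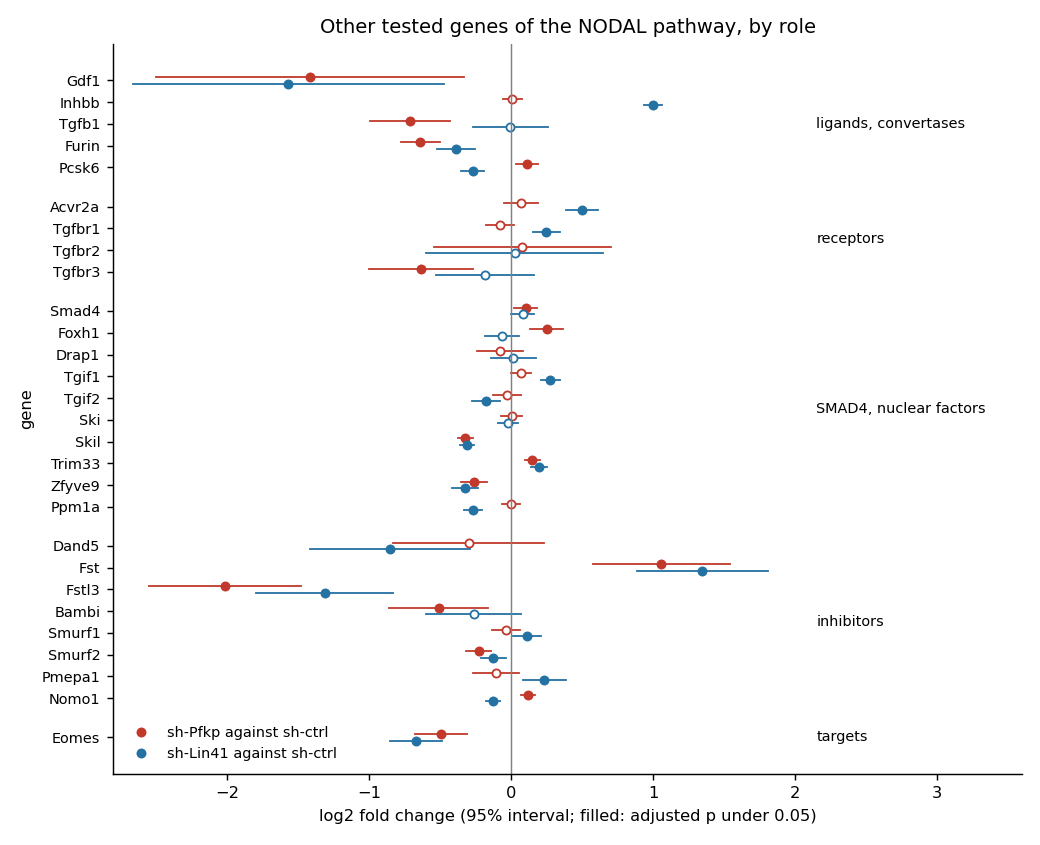
Log2 fold changes with 95% intervals for the 28 other tested pathway genes, grouped by role, in sh-Pfkp (red) and sh-Lin41 (blue) against sh-ctrl, with filled points for edgeR adjusted p under 0.05. Furin, Fstl3 and Eomes lie left of 0 in both comparisons, whereas Inhbb is at 1.00 in sh-Lin41 and near 0 in sh-Pfkp.

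The genes whose log2 CPM most resembled that of a member were taken from 11718 candidates by Pearson correlation over the 9 libraries. The 9 libraries fall into 3 groups, so these correlations are descriptions without a test. Lefty2 was most like Add3 (r = 0.999), Scd2 (0.999) and Triobp (0.996), and Lefty1 most like Cavin1 (0.995), Stac2 (0.994) and Nedd4l (0.994). Tdgf1 was most like Lrp1 (0.996), Psat1 (0.996) and Dusp16 (0.995), and Gdf3 most like Col1a2 (0.994), Peg10 (0.994) and Fiz1 (0.993). Col1a2 had 86 to 103 counts per library in sh-Pfkp, 2 to 6 in sh-Lin41 and 0 to 1 in sh-ctrl. It was a candidate only through sh-Pfkp, and its correlation rests on that group. Nodal, which varied little, reached lower values with Gnaq (0.946), Tmem253 (0.932) and Aldh1l1 (0.917).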

How the data were processed

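Total RNA of 9 libraries was sequenced after a NEBNext Ultra library preparation, per the labels' protocols. Tools listed in the submitters' processing notes are RSEM, HISAT2, StringTie 1.3.1, Bowtie2 2.2.8 and fastp 0.18.0. The genome build, the annotation and the strand setting were not given in the sources used. The deposited counts are whole numbers, possibly RSEM estimates that the authors rounded, and FPKM values were deposited beside them. The authors' tables also hold a log2 ratio of mean FPKM, a p-value and an FDR for each gene. The control columns appear in both tables and were used once.

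Counts were tested with edgeR 4.0.16 in R 4.3.3 (filterByExpr by group, TMM scaling, quasi-likelihood fit of all 9 libraries, 6 residual degrees of freedom per gene before moderation). P-values were adjusted by Benjamini-Hochberg over all 13158 genes tested, and genes under 0.05 were called. Dividing the log2 fold change by the root of F gave its SE. The steps were also run on simulated data with far fewer changed genes than were called here, so that run does not gauge false calls in these data. Transcript comparisons used GENCODE M21 and promoters a RefSeq table.

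Alternatives were DESeq2 1.42.0, limma 3.58.1 (voom on counts, trend on log2(FPKM + 1)), RLE and upper-quartile scaling, other filters, 6-library fits, a replicate block, 1.5-fold and 2-fold minimums and the omission of each library. The members and lists were chosen with earlier results of these data known. Named were all members, up to 3 called genes per role and comparison with the smallest adjusted p, the 2 targeted genes, and the 3 genes most like each of 5 members, leaving out predicted genes and means under 1 CPM. A gene of the target list is not reported here. Replicate pairs differed beyond counting noise (median chi-square 0.661 to 0.763, against 0.455), so none was treated as a repeat deposit. Since no label states that a group's libraries were separate cultures, the p-values reflect library-to-library spread, which may be technical. The labels give no batch.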

Additional observations from a re-analysis of the deposited data

How the results depend on the processing

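Across the 3 comparisons the 10 genes gave 630 fold changes under 21 alternatives. Of these, 576 kept their direction and their side of the threshold, 40 lost the call, 11 gained it and 3 changed sign. The 1.5-fold and 2-fold minimums reuse the main fold changes, so under them a call can only be lost. Most of the 40 losses arose there. All 3 sign changes concerned Smad3 in sh-Pfkp against sh-Lin41, a value not called in any setting. It was -0.031 with upper-quartile scaling and ranged from -0.059 to 0.073 on leaving out single libraries, below 0 without sh-Pfkp replicate 1 or sh-Lin41 replicate 1. Lefty1 in sh-Pfkp against sh-ctrl ranged from -1.39 to -1.27 and Lefty2 from -1.44 to -1.38, called in all 21. Calls lost or gained without a fold minimum are given beside the genes or with the replicate block, except that Acvr2b also passed in sh-Pfkp with upper-quartile scaling (edgeR adjusted p = 0.0372) and in sh-Lin41 in the 6-library fit (adjusted p = 0.0473). The cause was not tested.

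Members called higher in sh-Lin41 against sh-ctrl numbered 2 in the 6-library fit, with limma-trend and with limma-voom, and 1 to 2 on leaving out single libraries, with 2 without sh-Pfkp replicate 2 or sh-Lin41 replicate 3. Under limma-trend, 1 member was higher in sh-Pfkp against sh-Lin41, 3 other pathway genes were higher in sh-Pfkp against sh-ctrl, and 2507 genes were higher and 3802 lower there. At least 1.5-fold, members higher and lower were 1 and 4 (sh-Pfkp against sh-ctrl), 0 and 2 (sh-Lin41 against sh-ctrl) and 0 and 1 (sh-Pfkp against sh-Lin41); other pathway genes 1 and 5, 2 and 4, 0 and 3; all genes 675 and 1309, 767 and 745, 519 and 1113. At least 2-fold, members were 0 and 2, 0 and 0, 0 and 0; other pathway genes 1 and 2, 2 and 2, 0 and 0; all genes 297 and 560, 268 and 292, 193 and 398.

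Deviations of same-numbered sh-Pfkp and sh-ctrl libraries correlated at 7.26e-05, 0.125 and 0.0887 across all tested genes, and those of different numbers at -0.111 to 0.0267. Over 6027 genes with a mean of at least 500 counts, the same-numbered values were -0.0830, -0.0225 and -0.00214. For sh-Lin41 and sh-ctrl, same numbers gave 0.010, -0.0382 and -0.0602 over all tested genes and 0.1125, 0.0557 and 0.0533 over the 6027. Same numbers did not correlate in both gene sets and no label states what they mark, so they were not taken as pairing. With a replicate block, members higher in sh-Lin41 against sh-ctrl were 2 (9 libraries, Acvr2b added at adjusted p = 0.0484) and 3 (6 libraries, Acvr2b at 0.0372 and Tdgf1 at 0.0125, edgeR). By CPM, not per length, the places in the sh-ctrl order of Smad2, Smad7, Gdf3, Acvr1b, Lefty1 and Nodal were 3, 4, 5, 6, 7 and 8. With Spearman in place of Pearson, 1 of the 3 genes most like Nodal and 0 of those most like the other 4 members were the same. Differences within the printed intervals of Nodal and Acvr2b were not resolved with 3 libraries per group.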
